A study of Mus musculus with 4 samples.

Results

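The genes described here are 10 genes of the circadian clock, chosen by name: Clock, Per1, Per2, Per3, Cry1, Cry2, Nr1d1, Nr1d2, Dbp and Bhlhe40. All 10 were found by symbol among the 56832 gene rows of the count files. They were measured by RNA sequencing in 4 libraries labelled replicates 1 to 4 of 1 group, naive microglia, which are the macrophages that live in brain tissue. The cells came from brains of female C57BL/6 mice that had no intervention, and they were sorted as CD11b-positive cells of low to intermediate CD45. The series also describes myeloid cells derived from transplanted blood stem cells, which are not analysed here, so there is no contrast between groups. The sources used here give neither the age of the mice nor the time of day at which the cells were taken. Whether the 4 libraries stand for 4 animals is not stated, so a p-value here speaks to the spread among these libraries alone, and that spread may be technical.

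The clock is a feedback loop of transcription that runs in nearly every cell with a period of about a day. CLOCK and BMAL1 bind E-box sequences and switch on the Per and Cry genes, whose proteins return to the nucleus and repress that pair. In a second loop the nuclear receptors REV-ERB alpha and REV-ERB beta, encoded by Nr1d1 and Nr1d2, repress Bmal1, while ROR receptors activate it. Clock-driven factors such as DBP carry the rhythm on to D-box sequences of further genes, and in macrophages the loop is known to bear on inflammatory responses. Per1 and Bhlhe40 are also known to respond within an hour to stimuli outside the clock.

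Promoter windows are shown for 3 members whose levels differed in contrasting ways between libraries and which carry clock motifs. Per1 and Cry1 were lowest in replicate 4, and Per3 was highest there. Each window is the 250 bases before a RefSeq start site in build GRCm38.p6, written 5′ to 3′ on the strand of the gene, with matches to the E-box CACGTG, the variant CACGTT and the D-box TTATGTAA in capitals on either strand. The windows are chr11:69098699-69098948 on the plus strand for Per1 (the more upstream of 2 start sites), chr10:85185055-85185304 on the minus strand for Cry1 and chr4:151044666-151044915 on the minus strand for Per3.
Per1: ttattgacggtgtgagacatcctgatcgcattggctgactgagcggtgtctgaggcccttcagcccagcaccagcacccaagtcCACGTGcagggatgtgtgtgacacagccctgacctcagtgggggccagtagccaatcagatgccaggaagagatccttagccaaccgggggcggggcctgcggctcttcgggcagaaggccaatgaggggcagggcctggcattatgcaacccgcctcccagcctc
Cry1: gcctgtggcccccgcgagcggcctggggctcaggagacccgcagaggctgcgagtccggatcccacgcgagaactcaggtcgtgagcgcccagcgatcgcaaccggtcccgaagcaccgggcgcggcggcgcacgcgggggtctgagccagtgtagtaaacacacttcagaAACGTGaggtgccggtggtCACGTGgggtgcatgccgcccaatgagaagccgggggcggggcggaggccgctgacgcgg
Per3: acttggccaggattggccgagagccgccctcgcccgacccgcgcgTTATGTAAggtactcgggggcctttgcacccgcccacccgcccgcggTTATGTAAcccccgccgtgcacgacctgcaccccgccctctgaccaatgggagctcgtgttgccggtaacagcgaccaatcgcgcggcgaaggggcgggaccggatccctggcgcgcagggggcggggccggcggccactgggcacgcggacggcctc

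The Per1 window held 1 E-box, starting 166 bases before the start site. The Cry1 window held 1 E-box 60 bases before the start. It also held 1 variant E-box, 79 bases before the start, with CACGTT on the other strand and so printed above as AACGTG. The Per3 window held the D-box at 205 and again at 158 bases before the start. Of the 10 members, 8 had a RefSeq window, Per2 and Bhlhe40 being the exceptions. Clock had 3 windows and Per1 had 2, and a member was counted if any of its windows held the motif. The shares given for all genes are of single windows, so the member counts are not on a like basis and lean high. The E-box was found in 2 of those 8, against 6.02% of 32851 windows of all genes. The variant E-box was found in 3 of 8 (Cry1, Cry2 and Nr1d1), against 3.85% of windows. For Cry2 and Nr1d1 the bases after the start site were not found in the gene's own GENCODE transcripts, so their windows are less certain. The D-box was found in 1 of 8, against 0.819%. The cAMP response element TGACGTCA was found in none of the 8 and in 1.55% of all windows, and its half-site TGACG, which lies within it, in 3 of 8 (Per1, Cry1 and Cry2) and in 17.8%. The nuclear receptor half-site AGGTCA was found in 3 of 8 (14.02% of windows), the GC box GGGCGG in 7 of 8 (32.7%) and the serum response element in none (1.47%). These matches are letters in a window and say nothing about binding in microglia.

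The libraries held 20360121 to 23292655 reads assigned to genes, and a count of 3 corresponds to 0.129 to 0.147 CPM in them, CPM being a gene's reads in every 1000000 reads counted in genes. They differed in breadth: 14850, 18978, 18431 and 13944 genes had a count in replicates 1 to 4. The label was checked with 11 microglial markers, all at 10 CPM or more in every library, with summed levels of 59081, 31585, 32724 and 62003 CPM. In sorted bulk cells, fewer expressing cells and less RNA per cell cannot be told apart.

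The clock genes stood at low to moderate levels, and the libraries did not carry the same set. Each of the 10 members reached 1 CPM in replicates 2 and 3, 9 did in replicate 1 and 5 in replicate 4. Clock, Nr1d1 and Nr1d2 reached 10 CPM in every library, and Per3 and Dbp at least 1 CPM. Per2 and Cry2 had 0 counts in replicate 4, Cry1 had 3 counts there, and Bhlhe40 had 2 counts in replicates 1 and 4. The summed level of the members was 205, 286, 258 and 195 CPM in replicates 1 to 4. The median over the 10 members of their mean level was 12.7 CPM, and the median over the 21681 genes with a count in any library was 3.02 CPM.

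**Figure D1:**
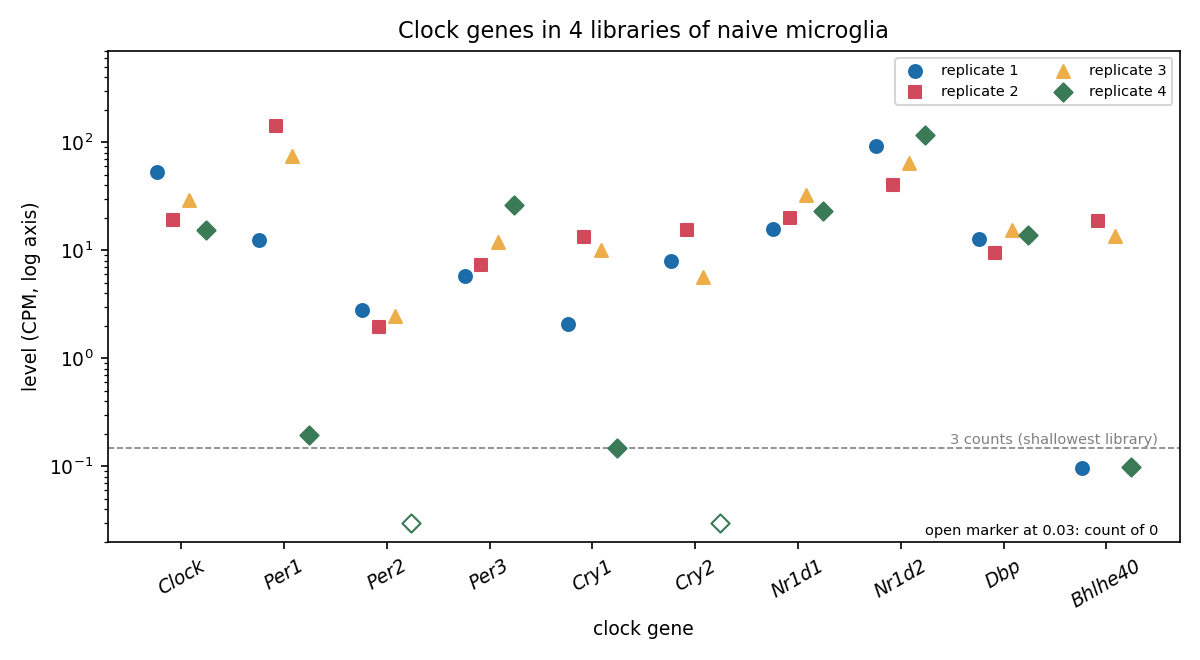
Level of each clock gene in CPM on a log axis, with 1 marker for each of the 4 libraries of naive microglia. Nr1d1 and Dbp lie close together over the libraries, while Per1 runs from 0.196 CPM in replicate 4 to 141 CPM in replicate 2, and Per2 and Cry2 have a count of 0 in replicate 4 (open markers, placed at 0.03).

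The activator gene Clock encodes the partner of BMAL1 that drives the loop. It stood at 53.4, 19.1, 28.9 and 15.4 CPM in replicates 1 to 4, with a mean of 29.2 ± 17.1 CPM (SD, n = 4). Replicate 1 was the highest and lay 3.47 times above replicate 4, the lowest.

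The Period genes, which encode the repressors PER1 to PER3, behaved unlike each other. Per1 gave 12.3, 141, 74.0 and 0.196 CPM in replicates 1 to 4, the last from 4 counts, with a 95% exact Poisson interval of 0.0535 to 0.503 CPM. Its highest library lay 720 times above its lowest. Per2 gave 2.77, 1.95 and 2.45 CPM in replicates 1 to 3. In replicate 4 it had 0 counts, for which the floor of 3 counts is 0.147 CPM, and its highest library was at least 18.8-fold higher than that floor. Per2 was thus even in 3 libraries and below detection in the other, at a level where few counts were available. Per3 ran the other way, at 5.73, 7.35, 11.9 and 25.98 CPM, so that replicate 4, the lowest for Per1 and Per2, was its highest.

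The Cryptochrome genes encode the other repressors of CLOCK and BMAL1. Cry1 gave 2.09, 13.3, 10.003 and 0.147 CPM in replicates 1 to 4, the last from 3 counts (95% exact Poisson interval 0.0304 to 0.431 CPM). Cry2 gave 8.01, 15.5 and 5.67 CPM in replicates 1 to 3 and 0 counts in replicate 4, so its highest library was at least 105-fold higher than the 3-count floor of replicate 4. Replicate 2 was the highest library and replicate 4 the lowest for Cry1, Cry2 and Per1 alike. Replicate 1 lay near replicate 3 for Cry2 and well below it for Cry1.

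Among the members that encode repressors, the REV-ERB genes were the steadiest. Nr1d1 gave 15.8, 19.8, 32.2 and 23.2 CPM in replicates 1 to 4, with a mean of 22.8 ± 7.01 CPM (SD, n = 4). Nr1d2 gave 92.0, 39.6, 63.9 and 117 CPM, with a mean of 78.0 ± 33.4 CPM (SD, n = 4). Its highest library lay 2.94 times above its lowest, and for Nr1d1 the ratio was 2.04. Replicates 1 and 4, the lowest 2 libraries for Per1 and Cry1, were the highest 2 for Nr1d2.

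Dbp encodes a factor of the PAR bZIP family that binds D-boxes and is a direct target of CLOCK and BMAL1. It gave 12.6, 9.43, 15.3 and 13.7 CPM in replicates 1 to 4, with a mean of 12.7 ± 2.48 CPM (SD, n = 4). It varied least of the 10 members, with a highest-to-lowest ratio of 1.62. Bhlhe40 encodes a repressor that competes for E-boxes. It gave 18.5 and 13.6 CPM in replicates 2 and 3, and the 2 counts in each of replicates 1 and 4 correspond to 0.0971 and 0.0982 CPM. The libraries of Bhlhe40 fell into levels above 10 CPM and levels under 1 CPM with none between.

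**Figure D2:**
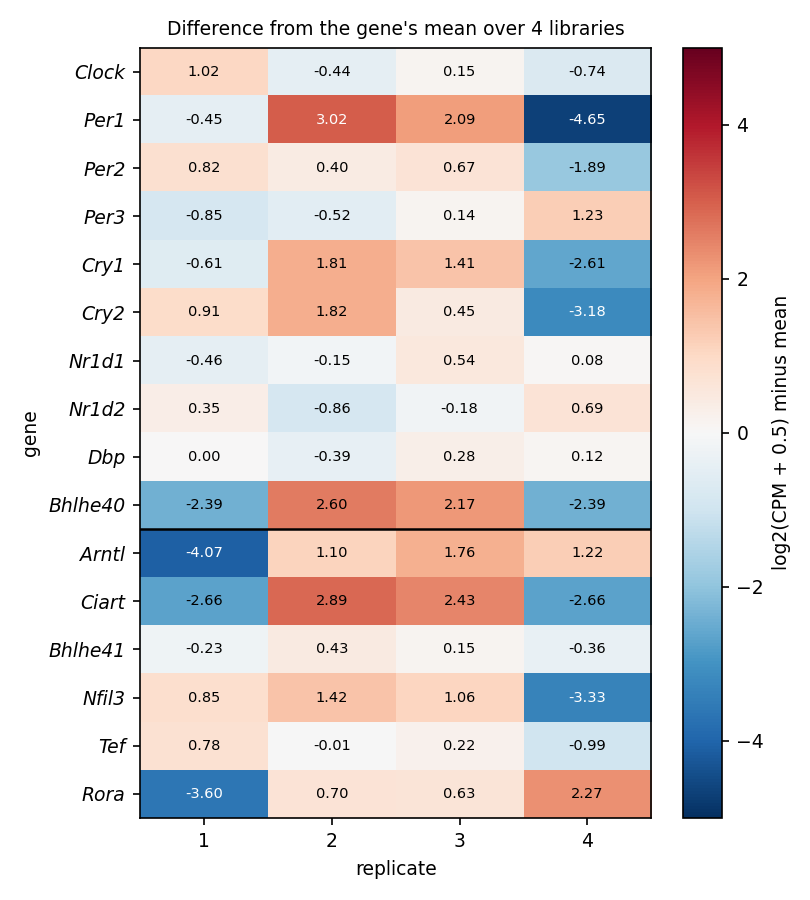
Difference of log2(CPM + 0.5) from the gene's own mean over the 4 libraries, for the 10 members (above the line) and 6 other genes of the loop. Replicate 4 is the lowest library for Per1 (-4.65), Cry2 (-3.18) and Cry1 (-2.61) and the highest for Per3 (1.23) and Nr1d2 (0.69), while Dbp stays within -0.39 and 0.28.

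Spread was set against all genes. The SD of log2(CPM + 0.5) over the libraries was 0.29 for Dbp, 0.42 for Nr1d1, 0.67 for Nr1d2, 0.78 for Clock and 0.92 for Per3. It was 1.27 for Per2, 2.04 for Cry1, 2.19 for Cry2, 2.76 for Bhlhe40 and 3.43 for Per1. The median over the 13109 genes that averaged at least 1 CPM was 0.83, with quartiles of 0.45 and 1.68. Dbp and Nr1d1 thus lay below the lower quartile, and Cry1, Cry2, Bhlhe40 and Per1 above the upper.

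A test of spread against the trend at each gene's level, the quasi-likelihood dispersion test of edgeR with Benjamini-Hochberg adjustment, called no clock gene. The low count filter of that test asks for counts in every library, so 5 of the 10 members were tested: Clock, Per3, Nr1d1, Nr1d2 and Dbp. None of them was called, and 0 of 9075 genes were called in all (0%), with 390 at an unadjusted p under 0.05. DESeq2 marked 0 of the same genes as dispersion outliers. Relative to the trend, the dispersion was 0.79 higher for Nr1d2 on the log2 scale (adjusted p = 0.962), 0.53 for Clock (adjusted p = 0.966) and 0.43 for Per3 (adjusted p = 0.970), and it was -1.33 for Nr1d1 and -3.02 for Dbp (adjusted p = 0.999 each). The median over all tested genes was -0.08. These signs were not stable for 4 of the 5 genes. Nr1d2 was at -1.07 without replicate 2 and at -0.71 in DESeq2, Clock at -0.71 without replicate 1, Per3 at -0.78 without replicate 4 and Nr1d1 at 0.20 without replicate 4. Dbp lay below the trend in each fit run, at -0.09 with replicates 2 and 3 alone and at -1.98 or lower in the others. Without a low count filter, a planned setting of edgeR, all 10 members were tested among 21681 genes and 0 were called. Per1 was there at 4.74, with unadjusted p = 0.00633 and adjusted p = 0.826. With a filter on a mean of 1 CPM or more, chosen after seeing the data, all 10 members were tested among 13109 genes and again 0 were called. In that edgeR fit Per3 was at -0.22, the dispersion of Per1 was 4.93 above the trend on the log2 scale, with unadjusted p = 0.0109 and adjusted p = 0.809, and that of Bhlhe40 was 2.27 above it, with unadjusted p = 0.120 and adjusted p = 0.809.

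Values near 0 were not equally common in the 4 libraries. Among genes whose mean in the other 3 libraries was 5 to 10 CPM, 18.6%, 2.23%, 3.45% and 40.1% were at 3 counts or fewer in replicates 1 to 4. Among those at 10 to 20 CPM the shares were 7.24%, 0.421%, 0.639% and 24.8%, and among those at 50 to 100 CPM they were 0.121%, 0%, 0% and 0.118%. Read against these shares, the members near 0 were not alike. Cry1 (8.47 CPM in the other 3 libraries), Cry2 (9.71 CPM) and Per2 (2.39 CPM) fell in ranges where many genes were near 0 in replicate 4. There, 40.1% of genes had 3 counts or fewer at the level of Cry1, 20.5% had 0 counts at the level of Cry2 and 45.1% had 0 counts at the level of Per2. Cry2 lay at the top of its range of 5 to 10 CPM. In the next range, 10 to 20 CPM, 7.82% of genes had 0 counts in replicate 4. Bhlhe40 averaged 10.7 CPM in the other 3 libraries, and 6.67% of genes at that level in replicate 1 and 21.2% in replicate 4 had 2 counts or fewer. Per1 averaged 75.9 CPM in the other 3 libraries, and 7 of 1690 genes at that level (0.414%) had 4 counts or fewer in replicate 4. That mean came mostly from replicates 2 and 3 (141 and 74.0 CPM), and Per1 stood at 12.3 CPM in replicate 1. For genes with a mean of 10 to 20 CPM, the share at 3 counts or fewer in replicate 4 was 24.8%.

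**Figure D3:**
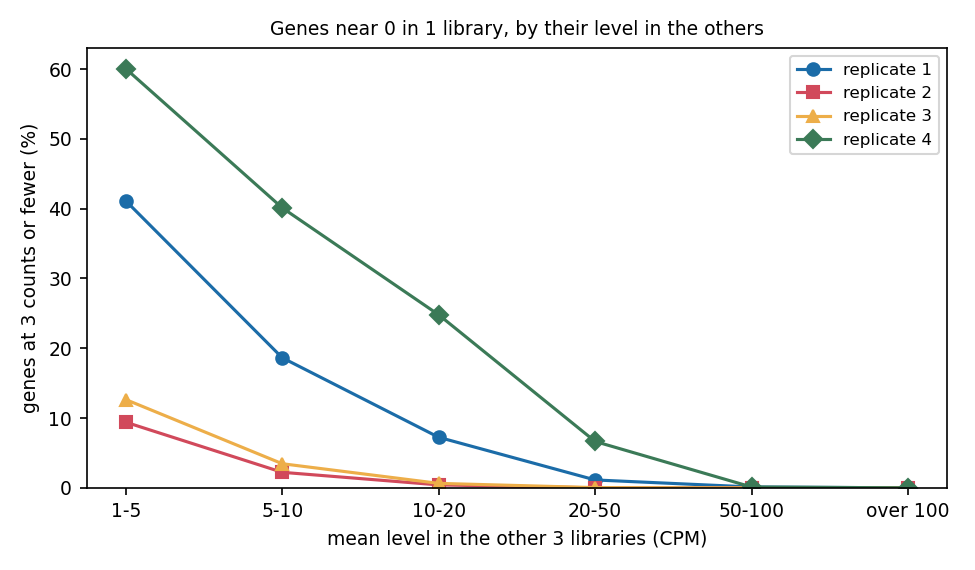
Share of genes at 3 counts or fewer in 1 library, by the mean level of those genes in the other 3 libraries (CPM ranges on the x axis), with 1 line for each library. The share in replicate 4 is 40.1% at 5 to 10 CPM and 24.8% at 10 to 20 CPM, above that of replicate 1 (18.6% and 7.24%) and of replicates 2 and 3, and it is 0.118% at 50 to 100 CPM, the range of Per1.

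Levels of different members were compared per kb of exon, since longer transcripts give more reads. In the order of mean level, Nr1d2 stood at 14.4 ± 6.18 CPM per kb, Per1 at 10.1 ± 11.5, Nr1d1 at 7.40 ± 2.28, Dbp at 4.26 ± 0.83 and Clock at 2.13 ± 1.25 (SD, n = 4 each). Cry1 followed at 1.91 ± 1.88 CPM per kb, Bhlhe40 at 1.71 ± 2.001, Per3 at 1.33 ± 0.958, Cry2 at 1.15 ± 1.01 and Per2 at 0.306 ± 0.212 (SD, n = 4 each). Per1 was above Nr1d2 in replicates 2 and 3, at 25.1 and 13.1 CPM per kb against 7.33 and 11.8. Leaving out 1 library moved some means far: Per1 averaged 28.8 CPM without replicate 2, against 56.97 CPM over all 4, and 75.9 CPM without replicate 4, where Nr1d2 averaged 65.2 CPM. Without replicate 2, Cry1 averaged 4.08 CPM (6.39 over all 4), Cry2 4.56 CPM (7.28) and Bhlhe40 4.60 CPM (8.07), and without replicate 4 Per3 averaged 8.32 CPM (12.7).

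Of the 9 pairs of neighbours in that order, 2 had counts in every library and differed within libraries by more than the SD over libraries. Nr1d1 exceeded Dbp by 0.77 ± 0.35 on the log2 scale and Dbp exceeded Clock by 1.15 ± 0.79, each in 4 of 4 libraries (SD, n = 4, exact two-sided sign-flip permutation p = 0.13, adjusted p = 0.375). With the longest transcript in place of the union of exons, Nr1d1 over Dbp was 0.24 ± 0.35 (exact permutation p = 0.375), no more than its spread. Cry2 exceeded Per2 by 1.42, 2.86 and 1.09 in replicates 1 to 3, and both had 0 counts in replicate 4, so that library gives no order. The other 6 neighbours did not differ beyond their spread. With 4 libraries the smallest p of this exact test is 0.13, so no order can pass 0.05. The order was itself set by the mean levels in these same libraries, so the direction of each difference is favoured and the tests give the order no separate support. The order of Dbp and Clock rests on the length correction, because without it Dbp over Clock was -1.05.

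**Figure D4:**
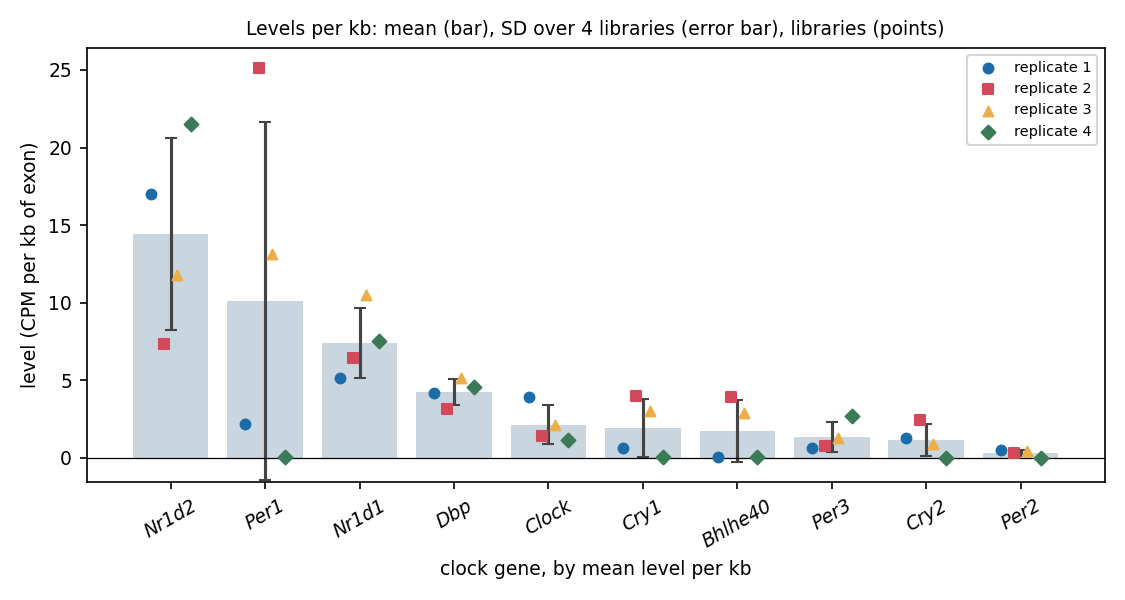
Level of each clock gene in CPM per kb of exon, ordered by the mean, with bars for the mean, error bars for the SD over 4 libraries and markers for the libraries. Nr1d2 leads at 14.4 ± 6.18, and the SD of Per1 (11.5) is larger than its mean (10.1).

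Related genes and opposing factors were compared within each library as 10 pairs, again per kb of exon and on the log2 scale. Per1 exceeded Per2 by 2.20, 6.22 and 4.96 in replicates 1 to 3, and in replicate 4 the pair rested on 4 and 0 counts. Nr1d1 lay below Nr1d2 in 4 of 4 libraries, by -1.72, -0.19, -0.17 and -1.51 in replicates 1 to 4 (mean -0.90 ± 0.83, SD, n = 4, exact two-sided sign-flip permutation p = 0.13, adjusted p = 0.208). The pair was thus nearly even in replicates 2 and 3 and apart in replicates 1 and 4. Per2 lay below Per3 in 4 of 4 libraries, at -0.33, -1.19 and -1.56 in replicates 1 to 3, with 0 counts of Per2 in replicate 4. Cry1 over Cry2 was mixed, at -1.01, 0.71 and 1.74 in replicates 1 to 3, with 3 and 0 counts in replicate 4 (exact permutation p = 0.375, adjusted p = 0.536).

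Bmal1, listed in the files under its older symbol Arntl, encodes the obligate partner of CLOCK. It gave 19.2, 30.7 and 20.9 CPM in replicates 2 to 4 and 1 count in replicate 1 (95% exact Poisson interval 0.00123 to 0.270 CPM). At its level in the other 3 libraries, 17 of 2922 genes (0.582%) had 1 count or fewer in replicate 1. Clock over Arntl was -0.87, -0.95 and -1.31 on the log2 scale in replicates 2 to 4, so the partner gene was the higher one there, and in replicate 1, where Clock was at its highest, the order was the opposite. The paralog Npas2, which can stand in for CLOCK, had 0 counts in all 4 libraries. Arntl2 had 30 counts in replicate 2 and 0 in the other libraries.

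The repressor Bhlhe41, the paralog of Bhlhe40, was steady where Bhlhe40 was not. It gave 41.7, 66.2, 54.4 and 38.1 CPM in replicates 1 to 4. Bhlhe40 lay below it in 4 of 4 libraries, by -1.33 and -1.48 on the log2 scale in replicates 2 and 3, and by 2 counts against 860 and 776 in replicates 1 and 4. Ciart, which encodes a further repressor of CLOCK and BMAL1, had 22.8 and 16.4 CPM in replicates 2 and 3 and 0 counts in replicates 1 and 4, the same libraries in which Bhlhe40 was near 0. Of genes at the level of Ciart in the other libraries, 3.57% had 0 counts in replicate 1 and 7.82% in replicate 4.

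Factors that share the D-box or the REV-ERB site with members were also compared. Tef, the PAR bZIP relative of Dbp, gave 51.3, 29.6, 34.8 and 14.7 CPM in replicates 1 to 4, and Nfil3, which represses through the D-box, gave 14.8, 22.2, 17.2 and 0.344 CPM. Dbp over Tef was -0.63, -0.25, 0.21 and 1.28 on the log2 scale and Dbp over Nfil3 -0.79, -1.80, -0.73 and 4.65, so neither pair kept 1 order (exact permutation p = 0.875 and p = 1, adjusted p = 1 each). Rora, an activator of Bmal1, gave 10.3, 9.83 and 31.7 CPM in replicates 2 to 4 and 1 count in replicate 1. Nr1d2 exceeded Rora in 4 of 4 libraries, by 3.21, 3.97 and 3.15 in replicates 2 to 4 (exact permutation p = 0.13, adjusted p = 0.208 over the 10 pairs).

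**Figure D5:**
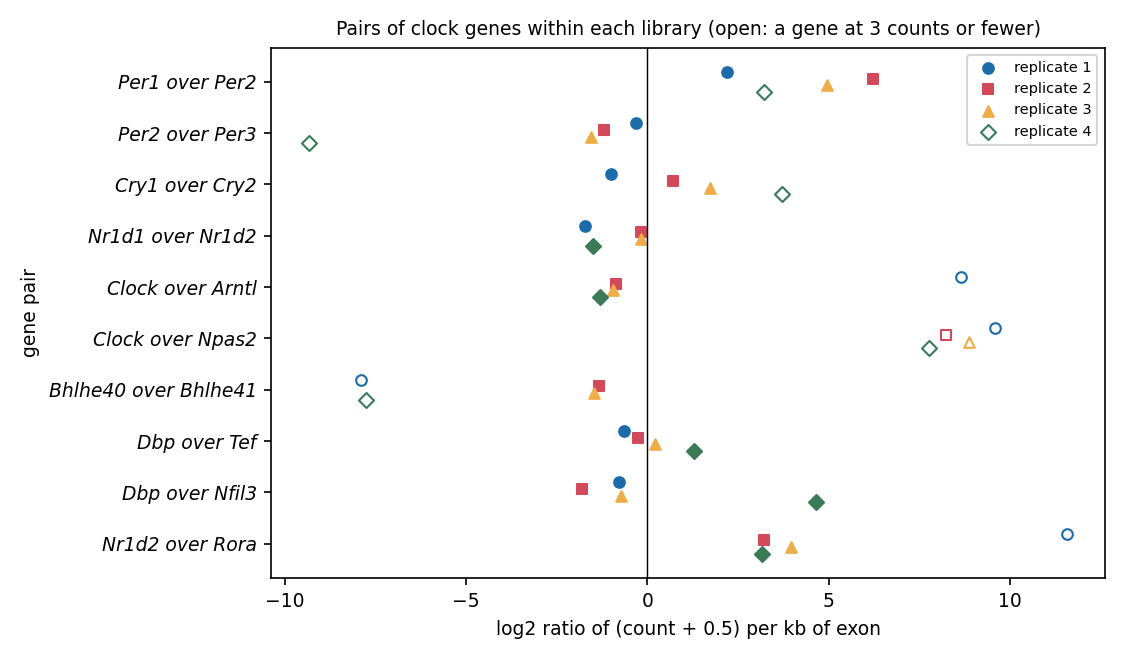
Log2 ratio, from (count + 0.5) per kb of exon, for 10 pairs of clock genes, with 1 marker for each library and open markers where a gene of the pair had 3 counts or fewer. Nr1d1 over Nr1d2 lies between -1.72 and -0.17, and Clock over Arntl lies between -1.31 and -0.87 in replicates 2 to 4 and at 8.65 in replicate 1.

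Of the wider clock machinery, 54 further genes were listed and measured. Of these, 35 reached 1 CPM in every library and 32 reached 10 CPM. The edgeR test of spread covered 35 of them and called 0, against 0% of all genes. The kinase genes Csnk1d and Csnk1e, whose proteins mark PER proteins for decay, averaged 30.4 ± 7.71 and 20.03 ± 7.24 CPM per kb (SD, n = 4 each), above the mean of each member. In single libraries the order could differ: Nr1d2, at 21.5 CPM per kb in replicate 4, was above Csnk1d (19.7) and Csnk1e (9.80) there, and Per1, at 25.1 in replicate 2, was above Csnk1e (20.02). Of the 9 clock kinase genes, 6 reached 10 CPM in every library. Among 10 genes of PER and CRY turnover 7 did so, led by the deubiquitinase gene Usp2 at 263 ± 39.1 CPM and by Fbxw11, which encodes a ubiquitin ligase adaptor for PER, at 163 ± 59.6 CPM. In contrast, 17 of the 54 genes were at 3 counts or fewer in some library, among them Rorb, Hlf, Timeless and Wee1.

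Immediate early genes, which are known to respond to stimuli, also differed between the libraries. The 18 immediate early genes, led by Dusp1, Jun, Zfp36 and Junb, summed to 5475, 59538, 51678 and 5757 CPM in replicates 1 to 4, and replicates 2 and 3 were also the highest libraries of Per1, Cry1 and Bhlhe40 and, outside the members, of Ciart. Cry2 differed, being higher in replicate 1 (8.01 CPM) than in replicate 3 (5.67 CPM). Clock, Per2, Per3, Nr1d1, Nr1d2 and Dbp did not have replicates 2 and 3 as their highest libraries either. The share of all genes that were highest in replicates 2 and 3 was not computed, and those libraries also had the most genes with a count. The 12 genes of the glucocorticoid list, led by Dusp1, Sgk1, Tsc22d3 and Nr3c1, summed to 2292, 11427, 13625 and 3191 CPM. Dusp1 is on the immediate early list too, and the 11 genes without it summed to 1752, 3755, 3497 and 2329 CPM. The 10 genes of the cAMP and CREB list, led by Nr4a1, Pde4b, Creb1 and Fosl2, summed to 207, 1264, 1158 and 272 CPM. The 8 of them that are not immediate early genes summed to 169, 378, 419 and 216 CPM. The median gene of all 10 stood at 13.3, 24.3, 19.2 and 0.712 CPM, so that replicate 4 was lowest by the median, as for Per1, and above replicate 1 by the sum.

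Markers of other cells differed between libraries as well. In replicates 1 to 4 the 8 oligodendrocyte markers summed to 492, 1805, 1839 and 621 CPM and the 10 markers of border-associated macrophages to 311, 820, 903 and 473 CPM, with no marker of either list at 0. The macrophage markers did not all run alike. Lyve1 had 3 counts in each of replicates 1 and 4. Cd163 and Ms4a7 were highest in replicate 4, at 32.6 and 83.5 CPM, and the others of that list in replicate 2 or 3. Among the oligodendrocyte markers, Opalin was highest in replicate 4, at 34.0 CPM, and the others in replicate 2 or 3. The 10 neutrophil markers summed to 1548, 315, 300 and 2435 CPM, again with none at 0. Ltf, Mpo and Elane were highest in replicate 1, and the others of that list in replicate 4. Elane was lowest in replicate 4, at 1.38 CPM. The 6 ependymal and choroid plexus markers, led by Ttr and Enpp2, summed to 741, 1535, 1608 and 2622 CPM, with Foxj1 at 0 in replicates 1, 3 and 4. The 6 B cell markers, led by Ighm, summed to 735, 312, 370 and 691 CPM, with Ms4a1 at 0 in all 4. The 8 neuronal markers summed to 12.5 to 37.1 CPM, with 5 at 0 in replicates 1 and 4 each, Syt1 and Tubb3 among them. The part of these cells, of the early response genes and of library breadth in the levels of the clock genes was not tested.

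Exons that overlap another gene limit some of these counts. In a GENCODE annotation of GRCm38, 18.0% of the exon bases of Dbp are shared with Sphk2 on the opposite strand and 8.55% of those of Nr1d1 with Thra. The share was 4.67% for Cry2 and 2.51% for Bhlhe40, and 0% for Clock, Per1, Per2, Per3, Cry1 and Nr1d2. Outside the members it was 19.1% for Bhlhe41. Since the sources used here do not give the strand setting of the counting, reads from such exons cannot be assigned to 1 gene with certainty.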

How the data were processed

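The deposited files hold raw read counts per gene symbol, 1 file per library. Build GRCm39 and the tools STAR 2.7.10a, SAMtools 1.16.1 and HTSeq 0.11.2 come from the submitters' processing notes. Neither the annotation nor the strand setting is given in the sources used here. The 5 rows at the end of each file, for reads not assigned to a gene, 20.8% ± 1.28 (SD, n = 4) of reads, were left out.

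CPM is a count scaled to the library's total assigned to genes. Levels per kb used the union of exons in GENCODE M21 (GRCm38), matched by symbol for 89.1% of rows. Pairs used log2 of (count + 0.5) and a sign-flip permutation test, exact and two-sided, over libraries. Spread was tested in edgeR 4.0.16 (R 4.3.3) with TMM scaling, filterByExpr at a minimum count of 10, an intercept-only quasi-likelihood fit and an upper-tail F test against the trend, at an adjusted p of 0.05. This fit was tested on simulated data with less spread between libraries than these data have. There it recovered large differences between libraries and few smaller ones. In the real data a large difference could go uncalled. Per1, its highest library 720 times above its lowest, had an adjusted p of 0.809 in edgeR with the filter on a mean of 1 CPM. A gene not called may thus still vary, even by a large amount. DESeq2 1.42.0 gave an alternative. Poisson intervals are exact at 95% and, like the floor of 3 counts, cover counting error only, since several reads can be copies of 1 molecule. Python 3.11.15 with scipy 1.17.1 did the rest.

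The members, gene lists, pairs and tests were chosen with earlier results of these data known. The rule for named genes took all members, both genes of each pair, genes of the wider clock lists that led their list or were at 3 counts or fewer in a library, and the 4 highest genes of each response list. It also named genes alike in profile to any member called variable, and no member was called. Arntl2 and the marker genes named were chosen after their values were seen. Some genes of these lists are not reported here.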

Additional observations from a re-analysis of the deposited data

Results flagged for a closer look

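Of 20 quantities screened over the 4 libraries (the CPM of 10 members and 10 pair ratios), 4 ratios had 1 library whose gap to the nearest other, as a share of the range, was above Dixon's critical value of 0.83. Chance flags about 1 in 20 such groups. All 4 rest on a gene with 7 counts or fewer in that library, so their sizes depend on the pseudocount. Clock over Arntl was 8.65 on the log2 scale in replicate 1, where Arntl had 1 count. Nr1d2 over Rora was 11.58 in replicate 1, where Rora had 1 count. Per2 over Per3 was -9.33 in replicate 4, where Per2 had 0 counts, and Dbp over Nfil3 was 4.65 in replicate 4, where Nfil3 had 7 counts. No single member's CPM was flagged.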

How the results depend on the processing

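No paired analysis was possible because the libraries form 1 group. Under the scalings, filters and robust fit tried, and without each library in turn (0 to 0), edgeR called 0 genes and 0 clock genes. With only replicates 2 and 3, which had the most genes detected (chosen after seeing the data), it called 31 genes of 13583 and 0 clock genes. That fit has 1 residual degree of freedom. Without length correction, Dbp over Clock was -1.05 and Dbp over Tef -1.24. With replicates 2 and 3 alone, Clock over Arntl was -0.91, Dbp over Tef -0.021 and Dbp over Nfil3 -1.26. Leaving out 1 library, Clock over Arntl ranged from -1.05 (without replicate 1) to 2.27, Dbp over Tef from -0.23 (without replicate 4) to 0.41 and Dbp over Nfil3 from -1.11 (without replicate 4) to 1.04. The other pairs kept their direction under these settings and with a pseudocount of 5. Mean levels of the members moved by less than 1 SD over libraries in each setting. Leaving out 1 of 4 libraries, or keeping 2, cannot move a mean by 1 SD, so this does not show that the means were stable. With replicates 2 and 3 alone, Per1 averaged 108 CPM. Leaving out 1 library, the mean ranged from 28.8 to 75.9 CPM for Per1, 4.08 to 8.47 for Cry1, 4.56 to 9.71 for Cry2, 4.60 to 10.7 for Bhlhe40 and 8.32 to 15.1 for Per3. For members near 0 the counts give only an upper bound, which covers counting error alone.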
